A study of Mus musculus with 12 samples.

Results

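Serum amyloid A and complement transcripts were examined in mouse colon after a repeated course of dextran sulfate sodium (DSS), a sulfated sugar polymer that damages the colonic mucosa. The 6 genes were fixed by name: Saa1 and Saa3 (serum amyloid A), C3 and C4b (complement components), C5ar1 (the receptor of complement fragment C5a) and F10 (coagulation factor X). They are 6 of the 991 features that the series lists in any library. Saa1, Saa3, C3 and C4b stand among the 912 features of the Control and DSS libraries, and C5ar1 and F10 among the 95 features of the high-dose libraries.

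The series holds 12 colon libraries in 4 groups of 3. Mice of the Control group drank ddH2O. The DSS group received 2.5% DSS for 5 days and plain water for the next 5 days, in 3 rounds. Both decoction groups had the same DSS course together with Banxia Xiexin Decoction (BXD), a Chinese medicine made from several herbs, at 7.60 g/kg per day (BXD_L) or 15.2 g/kg per day (BXD_H). All 3 DSS-treated groups thus share the DSS exposure, and the labels give no measure of injury and no strain, age or sex. Values are FPKM, the fragments per kilobase of a gene per 1000000 fragments, and so are levels per length.

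Whether the 3 libraries of a group are separate mice is not stated in the labels. The p-values thus reflect only the variation among libraries, which may be technical. The description text of Control replicate 3 and of DSS replicate 3 names the next group, against their titles and treatment labels. Groups followed the titles, and the test of each gene is also given without these libraries. The spacing of low FPKM values implied totals of 14.4 to 19.2 (in units of 1000000 fragments) for the Control and DSS libraries. Of the 12 colon epithelium markers fixed for this report, 2 were listed for Control and DSS (Car4 and Slc26a3), and both are genes of absorptive colonocytes. None of the 10 hepatocyte markers and 1 of the 8 adipocyte markers (Lep) was listed for Control and DSS. The others were not analysed here, so the tissue label can be checked only in part.

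Serum amyloid A proteins are small apolipoproteins of the acute phase response, the change in secreted proteins that follows infection or injury. The liver is the main source of circulating serum amyloid A, and gut epithelium, macrophages and fat cells also express members of the family. Complement is a cascade of plasma proteases and their substrates. C4 is cleaved in the classical and lectin routes, C3 is the substrate on which all routes meet, and fragments C3a and C5a act on leukocyte receptors. Transcription of serum amyloid A and C3 genes is known to respond to interleukin 1 and interleukin 6 through NF-kB, STAT3 and C/EBP factors.

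Saa1 (ENSMUSG00000074115) lies on chromosome 7 from 46740497 to 46742980 and Saa3 (ENSMUSG00000040026) on the same chromosome from 46711998 to 46715700, both on the minus strand, with 24.8 kilobases between them (mm10, the GRCm38 build). Saa4 lies between the pair and Saa2 beyond Saa1, and neither was analysed here. C3 (ENSMUSG00000024164) lies on chromosome 17 from 57203970 to 57228136 and C4b (ENSMUSG00000073418) on chromosome 17 from 34728380 to 34743882, both on the minus strand. C5ar1 (ENSMUSG00000049130) lies on chromosome 7 from 16246743 to 16259540 on the minus strand, and F10 (ENSMUSG00000031444) on chromosome 8 from 13037308 to 13056676 on the plus strand. All are annotated as protein-coding. Saa1 and Saa2 coding transcripts were identical at 93.5% of 612 aligned positions, and those of C4b and C4a at 95.9% of 5378. Reads could be split between such copies, so the values of Saa1 and C4b are uncertain to that extent.

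The 250 bases before the transcription start are shown for Saa1, which fell in DSS, and for Saa3 and C3, which rose, because these genes share known C/EBP control. Sequences are those of RefSeq on GRCm38.p6, read 5′ to 3′ on the gene's strand, and RefSeq promoters matched 5 of the 6 genes, all but C4b. Capitals mark matches on either strand to the C/EBP-type motif TTNNGNAA. The intervals are chr7:46742981-46743230 for Saa1, chr7:46715677-46715926 for Saa3 and chr17:57228137-57228386 for C3.
Saa1: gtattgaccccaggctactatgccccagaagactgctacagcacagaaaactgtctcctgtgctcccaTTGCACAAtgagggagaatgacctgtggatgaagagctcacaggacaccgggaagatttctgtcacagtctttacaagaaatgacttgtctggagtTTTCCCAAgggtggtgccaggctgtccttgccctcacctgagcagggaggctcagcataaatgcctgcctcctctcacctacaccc
Saa3: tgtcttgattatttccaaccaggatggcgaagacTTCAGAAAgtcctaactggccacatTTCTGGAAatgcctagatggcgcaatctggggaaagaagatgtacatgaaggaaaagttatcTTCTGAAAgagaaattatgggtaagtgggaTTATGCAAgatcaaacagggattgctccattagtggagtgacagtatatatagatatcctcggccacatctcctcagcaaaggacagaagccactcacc
C3: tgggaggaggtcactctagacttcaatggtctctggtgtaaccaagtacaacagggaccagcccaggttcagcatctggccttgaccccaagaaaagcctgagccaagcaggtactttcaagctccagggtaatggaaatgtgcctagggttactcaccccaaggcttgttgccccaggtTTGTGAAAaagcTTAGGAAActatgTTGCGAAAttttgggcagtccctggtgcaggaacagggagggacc
The motif matched at 2 positions in Saa1, 4 in Saa3, 3 in C3, 1 in C5ar1 and 0 in F10. The windows of Saa3 and C5ar1 reach into the gene bounds given above, because the RefSeq start lies inside them. Of 32851 windows of this length in the table, 36.8% hold at least 1 match, so a match by itself is common. The share of windows with several matches was not counted. The STAT-type motif TTCNNNGAA matched none of the 5 windows, against 7.02% of all windows. In C3 the 3 C/EBP-type matches lie within the last 70 bases before the start, whereas the nearest match begins 86 bases before the start in Saa1 and 99 in Saa3. The motifs were chosen after the sequences had been seen, and the matches describe letters, not binding.

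Set against Control, the DSS libraries show these genes after repeated DSS exposure. Saa1 was lower in DSS, and Saa3, C3 and C4b were higher. In each of these 4 genes the 3 DSS libraries all lay on one side of the 3 Control libraries, which held for 97.2% of the 576 tested features. Of all tested features 99.1% passed the threshold, 79.2% as higher and 20.0% as lower in DSS, and group means differed by at least 1.87-fold in every one of the 912 listed features. Passing the test therefore says little about these genes in particular, and the direction, the size and the spread between libraries carry the description below. Log2 changes are of FPKM + 1, which understates changes of low genes. A feature was tested if it reached 1 FPKM in at least 3 libraries, counted over all groups. A gene below 1 FPKM throughout Control is thus tested only through other groups, and its p-value is no independent support for a rise. In bulk tissue, fewer cells of a type and less RNA per cell cannot be told apart.

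**Figure D1:**
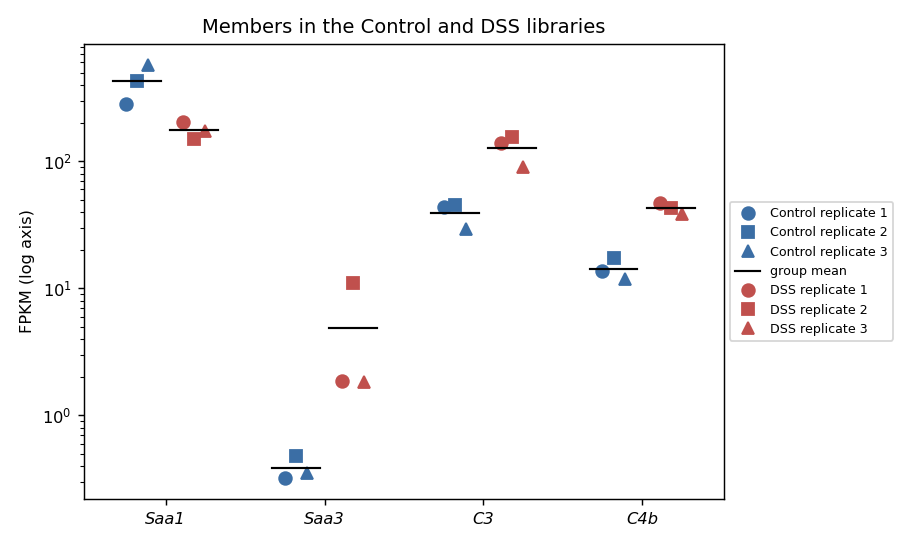
FPKM on a log axis (y) of the 4 genes listed for Control and DSS (x), 1 point per library with the marker shape giving the replicate and black lines the group means (n = 3). Saa1 is lower in all 3 DSS libraries, the other 3 genes are higher, and Saa3 in DSS replicate 2, at 10.9 FPKM, stands apart from the other DSS libraries.

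Saa1 was the most abundant of the 4 genes in Control. Its level was 284, 429 and 577 FPKM in Control replicates 1, 2 and 3, and 205, 149.7 and 174 FPKM in DSS replicates 1, 2 and 3. The groups did not overlap, and the Control libraries covered a wider range than the DSS libraries. The mean fell from 429.8 ± 146 to 176 ± 27.7 FPKM (SD, n = 3 each), 2.44-fold lower, and the log2 change was −1.23 (SE 0.37, limma adjusted p = 0.0112). This was the 37th largest fall of 115, whose median was −1.01, and only 4 features that fell had a higher Control mean. Without Control replicate 3, the highest library and one of those with a conflicting description, the log2 change was −0.99 and did not pass (limma adjusted p = 0.0598). Without both libraries of conflicting description it was also −0.99 (adjusted p = 0.0817).

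Saa1 FPKM followed the colonocyte genes in part. The sum of Car4 and Slc26a3 was 742, 950.1 and 1086 FPKM in Control replicates 1, 2 and 3, the same order as Saa1, and 320.1, 109 and 457 FPKM in the DSS libraries. DSS replicate 2 was lowest for both, as for 77 of the 115 features lower in DSS, while the other DSS libraries stood in opposite order. The part of colonocyte number in the Saa1 value was not tested. Among 205 tested features with a group mean of at least 10 FPKM, those closest to Saa1 over the 6 libraries were Gm16341, an antisense transcript (Pearson r = 0.980), Slc5a3, the sodium/myo-inositol cotransporter (0.977), and Sgk1, a kinase that promotes epithelial sodium uptake (0.972). These correlations describe 6 libraries whose group difference alone makes many listed features alike, and whether counting used strand is not stated, so Gm16341 is uncertain. Sgk1 stood at 50.3, 61.9 and 71.0 FPKM in Control and at 34.9, 23.4 and 24.6 FPKM in DSS.

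Saa3 moved the other way from a level near the lower end of the list. The 3 Control libraries had 0.32, 0.48 and 0.35 FPKM, and DSS replicates 1, 2 and 3 had 1.87, 10.9 and 1.82 FPKM. All DSS values were above Control, and DSS replicate 2 was far above the other DSS libraries, which nearly coincided. The mean rose from 0.383 ± 0.085 to 4.88 ± 5.25 FPKM, 12.7-fold, with a log2 change of 1.73 on the scale of FPKM + 1 (SE 0.49, limma adjusted p = 0.009). With a pseudocount of 0.1 the change was 2.86. Without DSS replicate 2 it was 1.04 (limma adjusted p = 0.00452), so this library decides the size. Without the libraries of conflicting description it was 2.07 (adjusted p = 0.0253). After each library was centred on its median listed feature, which lowers every change by 0.65, Saa3 stood at 1.08 and did not pass (limma adjusted p = 0.101). Saa3 passed the low-value filter through its DSS libraries alone, so its p-values are no independent support for a rise. The fit without DSS replicate 2 kept the tested features of the main fit. Without that library, Saa3 itself would not have reached 1 FPKM in 3 libraries. If the authors' gene length was the union of annotated exons, its Control values rest on about 12 to 21 fragments per library and its DSS values on 75, 474 and 91.

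The share of DSS replicate 2 in the Saa3 rise was among the largest in the list. Its value there was 5.93 times the mean of DSS replicates 1 and 3, a ratio that 5 of the 456 features higher in DSS exceeded and whose median over those features was 1.29. For C3 this ratio was 1.34, for C4b 1.01 and for Saa1 0.79. Over the 5 listed neutrophil markers this ratio ran from 2.23 (Retnlg) to 11.1 (S100a8, a calcium-binding protein of neutrophils). For Il1b, interleukin 1 beta, from the list of cytokine inputs, it was 7.91. The 5 neutrophil markers listed of 12 summed to 1.29 to 1.67 FPKM in Control, where Cxcr2 was listed at 0 in replicates 1 and 2, and to 13.3, 49.9 and 7 FPKM in DSS replicates 1, 2 and 3. The 8 fibroblast markers listed of 12 summed to 167 to 203 FPKM in Control and to 507, 974 and 491 FPKM in DSS. The part of these cells in the Saa3 value was not tested. Closest to Saa3 over the 6 libraries, among 206 features, were Pdpn, the membrane glycoprotein podoplanin (r = 0.993), Hmox1, heme oxygenase 1 (0.988), and Loxl2, a collagen cross-linking enzyme (0.983).

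C3 was the second most abundant of the 4 genes. Its level was 43.7, 45.1 and 29.3 FPKM in Control replicates 1, 2 and 3, and 139.7, 154 and 89.6 FPKM in the DSS libraries. The groups did not overlap, and DSS replicate 3 was clearly below the other DSS libraries. The log2 change was 1.66 (SE 0.36, limma adjusted p = 0.00444), a 3.24-fold rise of the mean and the 85th largest of 456 rises, whose median was 1.05. Both libraries of conflicting description were the lowest of their group for C3 and for C4b. Without them the log2 change of C3 was 1.70 (limma adjusted p = 0.0212).

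C4b, the mouse gene of complement C4, had the smallest spread relative to its mean in DSS. It stood at 13.6, 17.3 and 11.9 FPKM in Control and at 46.8, 43.1 and 38.2 FPKM in DSS, with a wide gap between the groups. The log2 change was 1.53 (SE 0.29, limma adjusted p = 0.00356), a 2.99-fold rise from 14.3 ± 2.77 to 42.7 ± 4.29 FPKM and the 98th largest rise. Without the libraries of conflicting description it was 1.49 (limma adjusted p = 0.0225).

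The features most like the complement genes over the 6 libraries were found in the same way. For C3 they included Entpd1, the ectonucleotidase CD39 (r = 0.990), and Cd93, a surface receptor of endothelium and myeloid cells (0.988). For C4b they were Sirpa, an inhibitory receptor of myeloid cells (0.998), Vcam1, an endothelial adhesion molecule (0.995), and Cd68, a lysosomal protein of macrophages (0.993). C3 and C4b correlated with each other at r = 0.973 over the same 6 libraries. The 5 macrophage and monocyte markers listed of 12 summed to 16.1 to 21.8 FPKM in Control and to 39.6 to 48.2 FPKM in DSS. Of these, 4 passed as higher, a share near the 79.2% of all tested features that did so. Chil3 did not pass (limma adjusted p = 0.258), though its DSS values of 0.44, 1.22 and 0.19 FPKM all lay above Control (0.04, 0.11 and 0.08). It reached 1 FPKM in DSS replicate 2 and in the 3 BXD_H libraries, whose spread also enters its test. The part of these cells in the complement values was not tested.

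**Figure D2:**
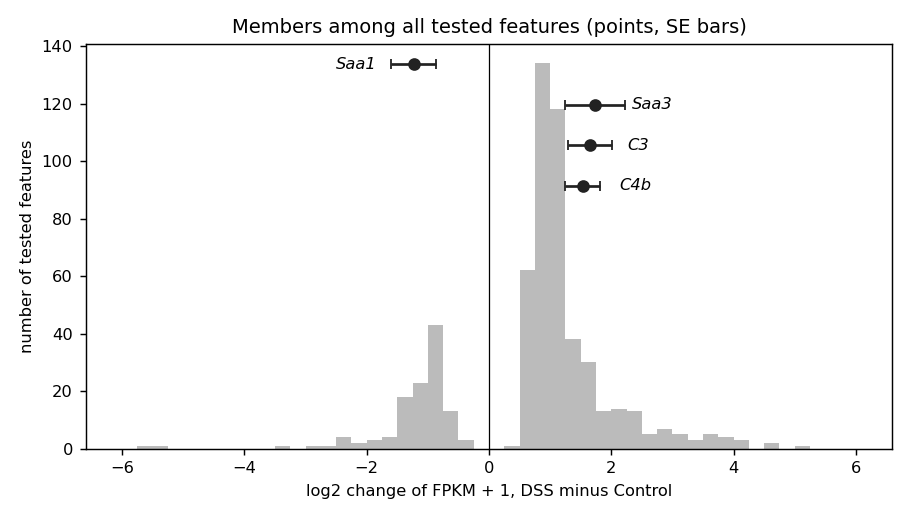
Number of tested features (y) by log2 change of FPKM + 1, DSS minus Control (x), for all 576 tested features in grey, with the 4 genes as points and SE bars at arbitrary height. Saa3 (1.73), C3 (1.66) and C4b (1.53) lie beyond the median rise of 1.05, and Saa1 (−1.23) beyond the median fall of −1.01.

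The order of levels also changed at the top. Saa1, C3, C4b and Saa3 ranked in this order in all 3 Control libraries and in DSS replicates 1 and 3, and in DSS replicate 2 C3 was above Saa1. Saa1 exceeded C3 by 6.49, 9.51 and 19.7 times in the Control libraries and by 1.47, 0.972 and 1.94 times in DSS replicates 1, 2 and 3. In Control no neighbours in the order overlapped. In DSS the ranges of Saa1 and C3 overlapped, and those of C3 and C4b and of C4b and Saa3 did not. These comparisons are per length as the authors set it. The annotated exons of Saa1 cover 2478 bases and its coding transcript 609, so its level relative to other genes depends on which length was used.

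The library's scale cancels in a ratio of plain FPKM within a library. It does not cancel fully in the log2 ratios compared here, where 1 is added to each value and Saa3 is below 1 FPKM in Control. The log2 ratio of Saa3 to Saa1 (each FPKM + 1) was −7.75, −8.18 and −8.74 in Control and −6.16, −3.66 and −5.96 in DSS replicates 1, 2 and 3. All DSS libraries were above all Control libraries, by 2.97 in the mean (two-sided exact permutation p = 0.1, the smallest that 3 against 3 allows, n = 3 each). Since the groups did not overlap in Saa3 or Saa1, which moved oppositely, this separation and its p-value were fixed in advance. With a pseudocount of 0.1 the difference was 4.10. In plain FPKM, Saa1 was 887, 893 and 1647 times Saa3 in Control and 109.6, 13.7 and 95.6 times in DSS. The log2 ratio of C3 to C4b was 1.61, 1.33 and 1.24 in Control and 1.56, 1.81 and 1.21 in DSS, and these values overlapped. The mean difference was 0.13 (two-sided exact permutation p = 0.7, n = 3 each), less than the SD of either group (0.20 and 0.30). A design of this size cannot show that the ratio is the same.

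**Figure D3:**
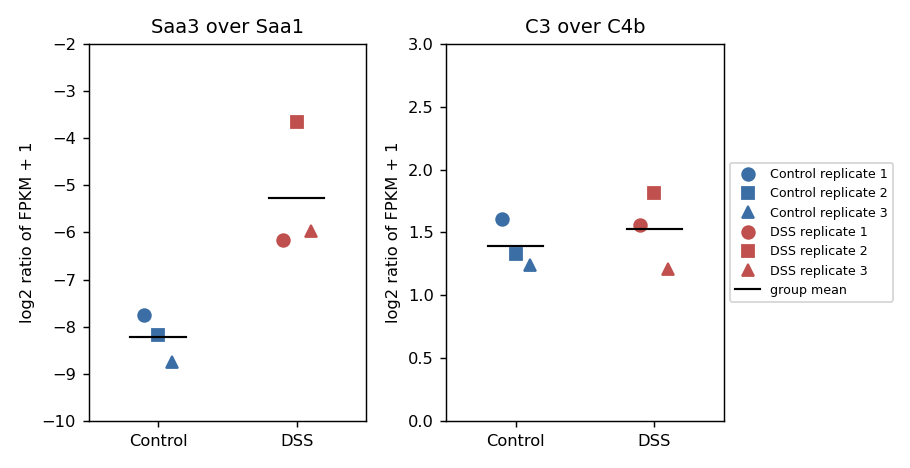
Log2 ratio of FPKM + 1 within each library (y) for Saa3 over Saa1 (left) and C3 over C4b (right), by group (x), with points as libraries and black lines as group means (n = 3). The Saa3 to Saa1 ratio of every DSS library is above every Control library, as the opposite moves of both genes require. The C3 to C4b ratios of the groups overlap.

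Of 30 genes in the acute phase list 10 were listed for Control and DSS, and 9 were tested, of which 8 rose and 1, Saa1, fell (median log2 change 1.53, against 0.96 over all tested features). Since 79.2% of all tested features passed as higher, this count is near the background. Serpina3n, a secreted protease inhibitor, stood at 20.9, 27.5 and 26.6 FPKM in Control and at 104.7, 167 and 66.8 FPKM in DSS (log2 change 2.04, limma adjusted p = 0.00365). Steap4, a metalloreductase, rose by 1.55 and Serpina3m by 1.53. Cp, the copper-carrying ferroxidase ceruloplasmin, rose by 1.02. In Serpina3n, Serpina3m, Steap4 and Cp, as in Saa3, DSS replicate 2 was the highest library. The same held for 294 of the 456 features higher in DSS, so this is common in the list. Itih3, below the filter, stood at 0.24 ± 0.104 and 0.807 ± 0.0569 FPKM. The Serpina3 genes are a family of close copies, so reads may be shared among them.

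Complement genes listed for Control and DSS were few, and all 6 that were tested passed as higher in DSS, beside 79.2% of all tested features. Against that background a count of so few genes shows nothing particular to them, and the same holds for the fibrinolysis and cytokine lists that follow. Of 30 components 3 were listed and all 3 passed: C3, C4b and Colec12, a scavenger receptor of the collectin family (2.94 ± 0.384 to 7.32 ± 1.71 FPKM, log2 change 1.06). Of 10 receptors 3 were listed. C3ar1, the C3a receptor, stood at 2.41, 3 and 2.52 FPKM in Control and at 7.04, 7.03 and 7.47 FPKM in DSS (log2 change 1.17, limma adjusted p = 0.00309), with little spread within either group. Cd93, named above for its likeness to C3, rose by 1.31. C5ar2, the other C5a receptor, was below the filter at 0.31, 0.34 and 0.21 FPKM in Control and at 0.64, 0.98 and 0.97 FPKM in DSS. Of 14 regulators 1 was listed, Cd55, which speeds the decay of C3 convertases, and it rose from 13.9 ± 2.82 to 29.8 ± 4.78 FPKM (log2 change 1.06).

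Among 27 coagulation genes F5, factor V, was the one listed for Control and DSS, below the filter at 0.0933 ± 0.0379 and 0.33 ± 0.0265 FPKM. Of 11 fibrinolysis genes 3 were listed and all 3 rose: Plaur, the urokinase receptor, by 1.15, Plau, urokinase, by 0.98 and Plat, tissue plasminogen activator, by 0.86 on the log2 scale. The list of cytokine inputs of the acute phase response had 5 of 26 genes listed. Il1b, Tnf, the oncostatin M receptor gene Osmr and the STAT3 feedback inhibitor gene Socs3 passed as higher (4 of 4 tested). With a pseudocount of 0.1 in place of 1, the log2 change was 3.32 for Il1b and 2.48 for Serpina3m, against 2.39 and 1.53. Such a shift occurs in genes of low FPKM, so the limit given above for genes below 1 FPKM in Control may apply to them. Il1b did not pass without Control replicate 2 (log2 change 2.24, limma adjusted p = 0.0581). Osm, below the filter, stood at 0.123 ± 0.0153 and 0.713 ± 0.625 FPKM. Of 6 serum amyloid A receptors 2 were listed, both below the filter. Fpr2, a formyl peptide receptor of myeloid cells, stood at 0.21, 0.19 and 0.14 FPKM in Control and at 0.55, 2 and 0.24 FPKM in DSS, and Fpr1 was listed at 0 in Control replicate 2 and at up to 2.09 FPKM in DSS.

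Of the genes named from these lists, Serpina3n, Steap4, C3ar1 and Cd93 stayed past the threshold after centring, in a fit of the Control and DSS libraries alone. The log2 changes of Cp (0.37), Serpina3m (0.88), Colec12 (0.41), Cd55 (0.41), Plaur (0.51), Plau (0.33), Plat (0.21), Il1b (1.74), Tnf (0.45), Osmr (0.21) and Socs3 (0.55) stayed positive and did not pass.

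**Figure D4:**
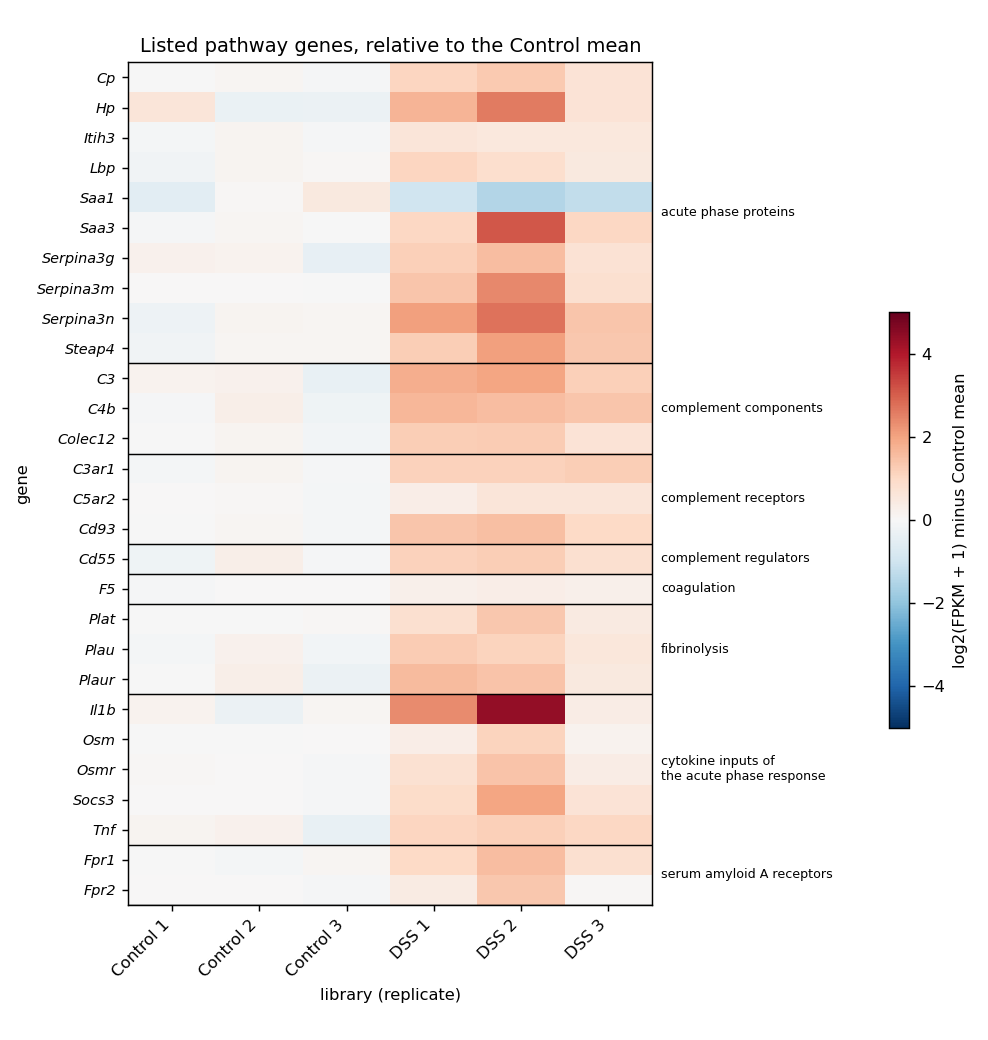
Colour gives log2(FPKM + 1) minus the Control mean for each gene listed for Control and DSS (y) of the 8 pathway lists, in the 6 Control and DSS libraries (x). Saa1 is the one gene below its Control mean in all 3 DSS libraries, and Il1b and Saa3 are most raised in DSS replicate 2.

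C5ar1 and F10 were listed for the high-dose group, and their levels in Control, DSS and BXD_L were not analysed here. No test was possible for them, since no other group gives a value. C5ar1 stood at 6.3, 7.63 and 14.97 FPKM in BXD_H replicates 1, 2 and 3 (9.63 ± 4.67, SD, n = 3). Replicate 3 was highest, at 2.38 times replicate 1, and 35 of 94 features with a ratio varied more between the 3 libraries. F10, a liver-made clotting protease that leukocytes can also express, stood at 0.38, 0.83 and 2.83 FPKM (1.35 ± 1.3). Its highest library was 7.45 times its lowest, and 11 features varied more. The library totals implied by low values rest on 17 short genes here and are less certain. With them the values correspond to about 279, 357 and 478 fragments for C5ar1 and 18, 41 and 96 for F10.

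The 3 neutrophil genes listed for the high-dose group had the same order of libraries. Retnlg, a resistin-like protein of neutrophils, stood at 9.5, 64.5 and 226 FPKM, the collagenase Mmp8 at 1.22, 9.25 and 21.7 FPKM, and the granule protein Ngp at 0.76, 4.23 and 17.5 FPKM in replicates 1, 2 and 3. Of the 95 high-dose features 55 were highest in replicate 3. The part of neutrophils in the C5ar1 and F10 values was not tested. Chil3, a chitinase-like macrophage protein, was at 1.42, 7.78 and 8.98 FPKM, and Itih4, the acute phase gene listed for this group, was at 0.47, 2.06 and 1.94 FPKM, highest in replicate 2.

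**Figure D5:**
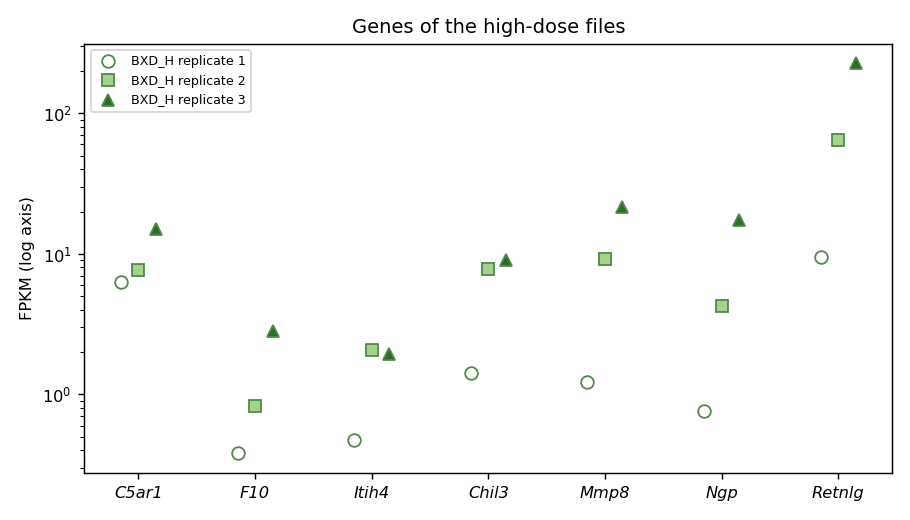
FPKM on a log axis (y) of C5ar1, F10 and 5 other listed genes (x) in the 3 high-dose libraries, with marker shape and shade giving the replicate. C5ar1, F10, Mmp8, Ngp, Chil3 and Retnlg are highest in replicate 3 and lowest in replicate 1, and Itih4 is highest in replicate 2.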

How the data were processed

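Each deposited file gives 1 library in FPKM, rounded to 2 decimals, per the file headers. The submitters' processing notes name the tools fastp, FastQC and bcl2fastq and the build mm10. An aligner, a counter, its strand setting and the annotation release were not given in the sources used here. Features were matched to GENCODE release M21 by Ensembl identifier (981 of 991). Library totals were inferred by finding the total at which FPKM times exon length gave whole fragments (within at most 0.2) for genes under 1200 bases, which held for 82.4 to 91.6% of such genes in Control and DSS and 52.9 to 64.7% in BXD_H.

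Tests used limma 3.58.1 (R 4.3.3) on log2(FPKM + 1), with a mean for each of the 4 groups, a trended estimate of the spread, and for every feature only those libraries where it is listed. Features with at least 1 FPKM in 3 or more libraries were tested (576). Two-sided p-values were adjusted over all of these by Benjamini-Hochberg, with a threshold of 0.05. Ratios were compared by exact permutation. The comparisons of both decoction doses with DSS were not run, since no member is listed in both groups. No 2 libraries of a group had over 25 identical FPKM values, so none was treated as a copy.

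The members, 8 pathway lists and 8 marker lists were chosen with earlier results of these data known. Named genes are the members, up to 4 genes per list with the smallest adjusted p (every one in lists with 4 or fewer listed), and the 3 features closest to each member, of which 1 is not reported here. Markers of endothelium (Cldn5, 1 of 8 listed) and of plasma and B cells (Igkc and Igha, 2 of 10) were higher in DSS, and Lep was at 0.25 to 0.51 FPKM in Control and 0 to 0.2 FPKM in DSS. Genes named outside this rule (S100a8, Il1b, Mmp8, Ngp, Retnlg, Chil3, Itih3, Osm) complete a list or were picked with their values known.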

Additional observations from a re-analysis of the deposited data

Results flagged for a closer look

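C5ar1 (mean 9.63 FPKM) and F10 (mean 1.35 FPKM) carry signal in the high-dose libraries, which enter no comparison here. Every one of the 3 libraries was above 3 fragments for both genes under the inferred totals. No Control or DSS value of either gene was analysed here, so no direction can be given.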

How the results depend on the processing

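C3 and C4b kept their direction and stayed past the threshold under all 15 alternatives (log2 change 1.01 to 1.90 and 0.88 to 1.67). Saa1 kept its direction in 15 and its call in 13: it did not pass without Control replicate 3 (−0.99) or without both libraries of conflicting description (−0.99), and leaving out 1 library gave −1.50 to −0.99. Saa3 kept its direction in 14 and its call in 13, with 1.04 to 2.08 when 1 library was left out, and was not tested at 5 FPKM in 3 libraries. Centring each library on the median listed feature, which lowers every change by 0.65 because most listed features rise, left Saa3 at 1.08 (limma adjusted p = 0.101). Of 576 tested features 571 passed (456 higher). With centring 231 passed (113 higher and 118 lower). Centring on the median draws the numbers of higher and lower features together by construction, so this balance is no result. Without the filter 877 passed (708 higher), and at 5 FPKM 264 (196 higher and 68 lower), since more or fewer features were tested. Of 259 values of other pathway genes 15 lost the call and none changed sign, 14 of them under centring and Il1b without Control replicate 2. The C3 to C4b difference of 0.13 was −0.01 without DSS replicate 2, and −0.01 to 0.29 over the left-out libraries. That of Saa3 to Saa1 was 2.17 to 3.42, and 4.10 with a pseudocount of 0.1.

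Same-numbered Control and DSS libraries showed no clear joint deviation (r = −0.052, 0.021 and 0.079), against −0.128 to 0.104 for differently numbered pairs. What the number stands for is not stated. With 3 libraries per group this check cannot tell whether same-numbered libraries share more than a number. A replicate block left 570 features called, with Saa1 at −1.23, Saa3 at 1.73, C3 at 1.66 and C4b at 1.53, each past the threshold, and the ratio differences at 2.97 and 0.13. FPKM below 1, as for Saa3 in Control, rests on few fragments.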
